A study of Rattus norvegicus with 9 samples.

Results

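PC12 cells that received miR-483-5p mimics before oxygen-glucose deprivation and reperfusion were compared with untreated control cells, library by library, at the level of RNA. This contrast uses 6 of the 9 libraries of the series, 3 from the OGD/R+miR-483-5p group and 3 from the control group, chosen by their labels. PC12 is a cell line from a rat adrenal medullary tumour that the labels describe as highly differentiated, and it is used as a model of neurons. In the OGD/R+miR-483-5p group, cells were transfected with the mimics, kept for 48 h, deprived of glucose at 1% oxygen for 4 h and then reoxygenated in normal medium for 6 h. The labels give the control group neither OGD/R nor a transfection, and no control mimic is mentioned for it. The effects of deprivation, of transfection and of the miRNA therefore cannot be told apart in this contrast. The 3 libraries labelled OGD/R, which had deprivation without mimics, were left out of every test. Their levels are given beside the leading features only, and their correlations only where the likeness of the libraries is described. Nothing in the labels says whether the replicates were separate cultures, so the p-values measure the spread between these libraries, which may be technical.

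Deprivation of oxygen and glucose, followed by their return, is a culture model of ischemia and reperfusion. It is known to engage protein-folding, hypoxia, oxidative stress and cell death programmes, while transfection by itself can engage sensors of foreign RNA. A miRNA acts through its seed, the bases near its 5′ end that pair with sites in target mRNAs, and pairing lowers the stability or the translation of the target. A mimic is a synthetic duplex that loads the mature miRNA into the silencing complex. The gene for miR-483 is known to lie within an intron of Igf2, an insulin-like growth factor gene.

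The mature sequences of the 2 arms of rat miR-483 are shown because the mimic is named for the 5p arm, and the capitals mark the seed, bases 2 to 8 from the 5′ end.
rno-miR-483-5p: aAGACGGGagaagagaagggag
rno-miR-483-3p: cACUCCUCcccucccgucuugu
The hairpin that holds both is shown with the 5p arm in capitals.
Mir483 hairpin: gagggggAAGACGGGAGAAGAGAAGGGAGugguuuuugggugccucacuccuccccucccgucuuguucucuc
These sequences are from RefSeq (build GRCr8, minus strand). The 5p arm lies at chr1:207247903-207247924, the 3p arm at chr1:207247865-207247886 and the hairpin at chr1:207247859-207247931, inside the bounds of Igf2 (chr1:207243873-207261263). A site matching the whole 5p seed reads CCCGUCU in the mRNA. Among the 724 mature entries of the RefSeq table, 0 others carried the seed AGACGGG. The labels do not print the sequence of the mimic, so that it equals the 5p arm is taken from its name.

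The libraries list 23426 features, 22037 with rat Ensembl gene identifiers and 1389 with identifiers of loci assembled from the reads. Each value is in FPKM, a count of sequenced fragments that the authors scaled by transcript length and by the size of the library. No file pairs these identifiers with symbols, and the RefSeq gene table used here held 0 of them. Genes therefore could not be called by name, the label of the cells could not be checked against chromaffin markers, and the lists of stress, hypoxia, apoptosis, mitochondrial and interferon genes could not be applied. Between 15792 and 16017 features were above 0 in a control library, and between 16820 and 17242 in a mimic library. Read counts were not used here, so depth is unknown.

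Before the results, the likeness of the libraries has to be given. A feature is called expressed here when its 6 libraries averaged 1 FPKM or more, which 11814 features did. Across these expressed features, the first principal component of log2(FPKM + 0.1) held 80.3% of the variance and placed the 3 controls at -51.3 to -49.5 and the 3 mimic libraries at 42.8 to 54.8. Mimic replicate 3 was the library at 42.8, nearest to the controls. Its distance from the controls, in the direction of the other 2 mimic libraries, was 0.849 of theirs, while mimic replicates 1 and 2, each set against the remaining 2, reached 1.01 and 1.00. Its profile was as close to OGD/R replicate 1 (Pearson r = 0.985 across the expressed features) and OGD/R replicate 2 (0.982) as to mimic replicate 1 (0.982) and mimic replicate 2 (0.981). The likeness was mirrored in OGD/R replicate 3, which had an r of 0.984 with each of mimic replicates 1 and 2, against 0.979 with OGD/R replicate 1 and 0.968 with OGD/R replicate 2. The labels of all libraries were used as given, and whether they are right was not tested. These correlations describe the libraries, since features are not independent replicates, and the main counts and the 2 largest rises are also given without mimic replicate 3.

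**Figure D1:**
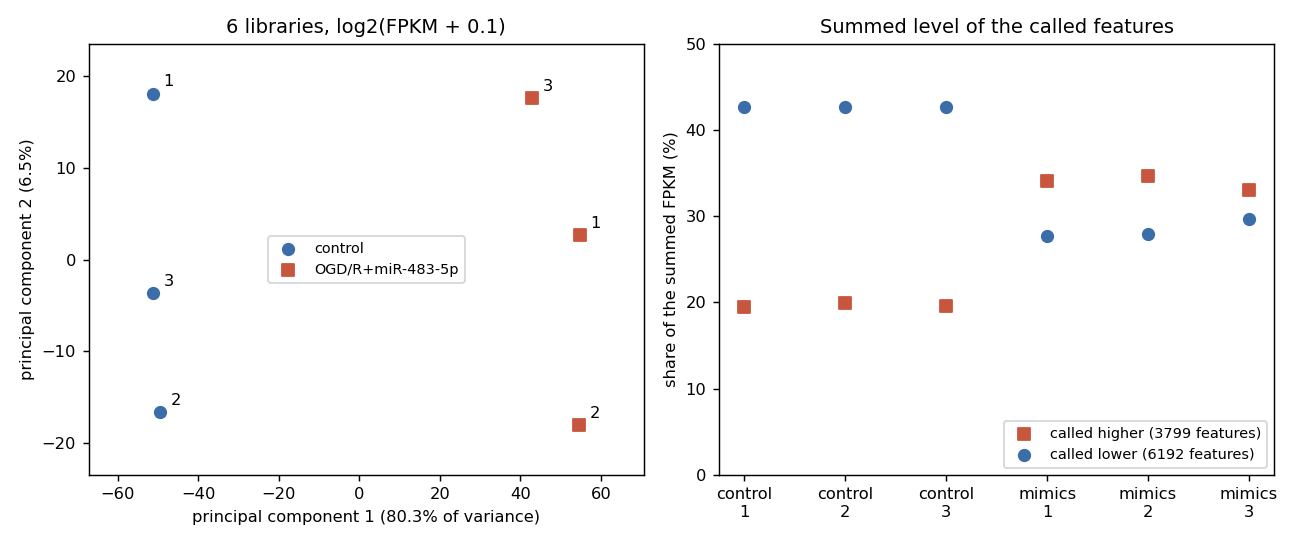
Left, the 6 compared libraries on the first 2 principal components (log2 units, expressed features), with replicate numbers beside the points. Right, the share of each library's summed FPKM (%, axis from 0) held by the features called higher and called lower; mimic replicate 3 sits nearest to the controls on the first component.

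RNA levels differed over a large part of the expressed genome. Of the 18940 features above 0 somewhere in the 6 libraries, 9991 (52.8%) passed an adjusted p under 0.05 in limma with Benjamini-Hochberg adjustment, and 10916 (57.6%) an unadjusted p under 0.05. Of the 18940, 3799 (20.1%) passed the adjusted threshold and were higher with mimics and OGD/R than in control. A further 6192 (32.7%) passed it and were lower. A called feature is one that passed this threshold. Without mimic replicate 3 the numbers were 3906 higher and 6234 lower. A further 2 criteria, used in the methods of the study, ask for a log2 ratio of 1 or more in size and for an unadjusted p under 0.05. They were met together by 1912 features upward (10.1%) and 2262 downward (11.9%), 4174 in all (22.0%). In bulk RNA, fewer cells of a kind and less RNA per cell cannot be told apart.

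Among the 11814 expressed features, 8155 (69.0%) were called, 2540 higher (21.5%) and 5615 lower (47.5%). The levels in the 3 mimic libraries did not overlap those in the 3 controls for 8908 of them (75.4%), with the mimic libraries above in 2878 (24.4%) and below in 6030 (51.0%). The differences between groups were larger than those within groups: the median absolute log2 difference between a control and a mimic library was 0.510 to 0.600, against 0.074 to 0.138 between 2 controls and 0.143 to 0.186 between 2 mimic libraries. For 3733 of the 11814 features (31.6%), the 95% interval of the log2 fold change lay within a 1.5-fold change either way. For 1048 it lay wholly above a 1.5-fold rise, and for 2338 wholly beyond a 1.5-fold fall.

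How many features were higher rather than lower moved with the scaling of the libraries. Expressed features had a median log2 fold change of -0.27 on the deposited values, against -0.08 when the libraries were quantile normalized and 0.05 when they were scaled to their upper quartile. Higher features made up 38.0%, 45.0% and 58.5% of the calls in that order. Changes of single features are therefore also given relative to the median of -0.27. The upper quartile of the values above 0 was 28.0 to 28.8 FPKM in the controls and 22.1 to 24.1 FPKM in the mimic libraries, while the summed FPKM was 645125 to 650554 and 630891 to 648896. Whether depth or composition of the libraries set this shift was not tested.

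Rises outnumbered falls among the largest changes, while falls were more frequent at smaller sizes. Among called expressed features, 895 were at least 2-fold higher and 1840 at least 2-fold lower; this order turned after quantile normalization (1210 higher and 1096 lower) and after upper-quartile scaling (1397 and 923). At 4-fold there were 245 higher and 167 lower, at 8-fold 72 and 25, and at 16-fold 30 and 6. These folds are on the log2(FPKM + 0.1) scale, which understates the change of low features. At 8-fold the rises stayed more numerous on quantile-normalized values (81 and 18), on values scaled to the upper quartile (105 and 12) and without mimic replicate 3 (79 and 28). At 4-fold the surplus shrank without that library, to 252 higher and 236 lower.

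**Figure D2:**
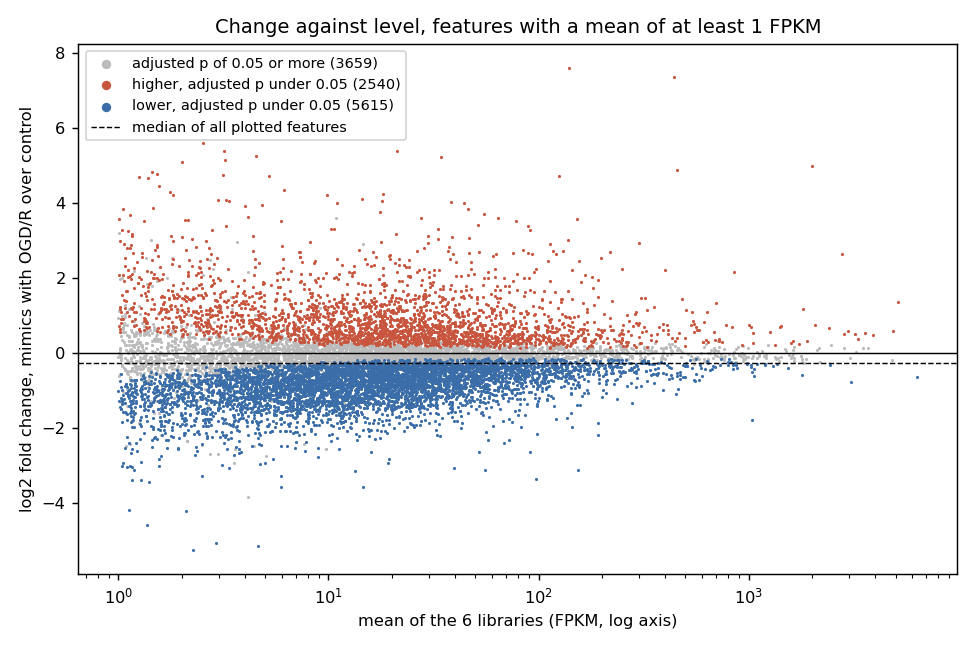
Log2 fold change of mimics with OGD/R over control against the mean of the 6 libraries (FPKM, log axis) for the 11814 expressed features, each point a feature. The called features are 2540 higher and 5615 lower, the dashed line is the median of -0.27, and the points far above 0 reach further than those below.

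Direction changed with expression level. Under 1 FPKM, 1259 features were higher and 577 lower, so that 68.6% of the called features were higher, and the share of the 7126 features of this class that were called was 25.8%. From 1 to 10 FPKM, 787 were higher and 2055 lower (27.7% higher). From 10 to 100 FPKM, 1464 were higher and 3145 lower (31.8% higher). Over 100 FPKM, 289 were higher and 415 lower (41.1% higher). The median log2 fold change in these classes was 0.16, -0.41, -0.25 and -0.08. On quantile-normalized values the higher share was 47.6%, 44.7%, 44.6% and 42.3%, and on values scaled to the upper quartile it was 79.1%, 44.2%, 55.6% and 76.4%. The order of the classes was thus not the same under the 3 scalings, and below 1 FPKM and above 10 FPKM the majority direction flipped between them.

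**Figure D3:**
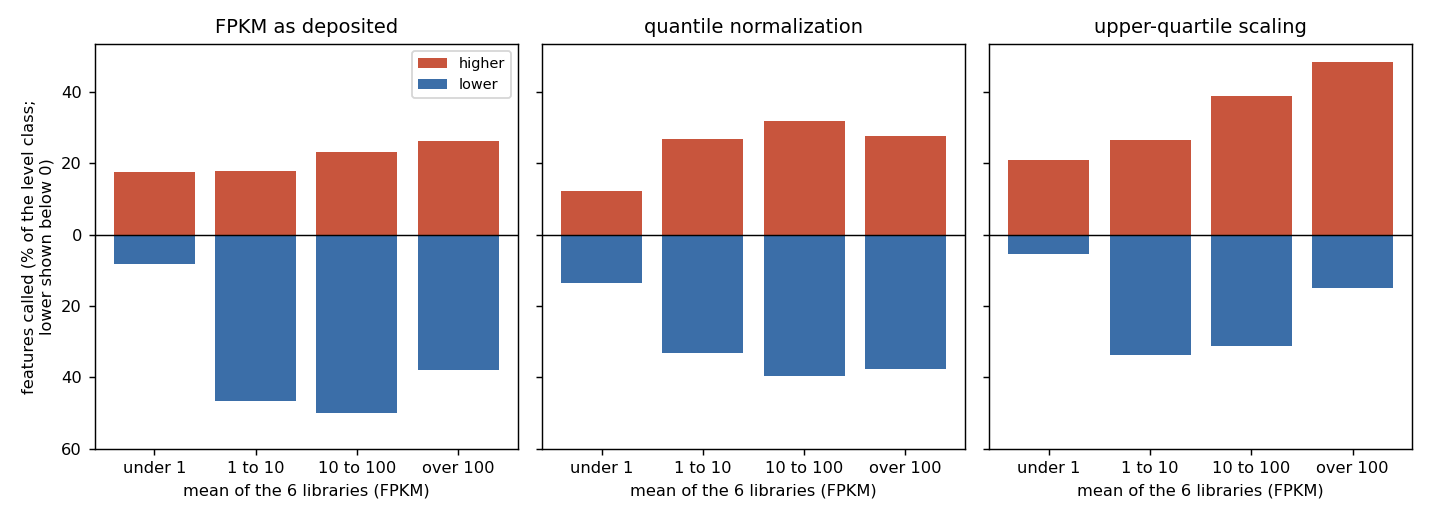
Percent of the features of each level class (mean of the 6 libraries, FPKM) called higher (above 0) and lower (below 0) at an adjusted p under 0.05, under 3 scalings. From 10 to 100 FPKM the lower features are the majority as deposited (3145 against 1464) and the higher ones after upper-quartile scaling (2449 against 1957).

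The leading features were the 15 with the largest log2 fold change each way among the 8116 expressed features that were called and whose groups did not overlap (68.7% of the 11814). Their sizes are a description, since the fold change chose them. The 15th and the 16th in rank were close, at 4.73 and 4.72 for rises and at -3.13 and -3.13 for falls. Only 2 identifiers each way are printed, because none has a name here.

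The feature with the largest rise was ENSRNOG00000050647. It stood at 1.33, 0.58 and 2.05 FPKM in the controls (1.32 ± 0.735, SD, n = 3) and at 411.93, 302.57 and 123.12 FPKM in mimic replicates 1, 2 and 3 (279 ± 146). Every mimic library lay far above every control, and mimic replicate 3 was the lowest of the 3. Its group means differed 212-fold, with a log2 fold change of 7.60 (standard error 0.55, 95% interval 6.31 to 8.90, adjusted p = 5.47e-05 with limma), or 7.87 relative to the median feature. Without mimic replicate 3 the log2 fold change was 8.11. In the OGD/R libraries, outside the test, it stood at 70.3, 42.78 and 523.48 FPKM.

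ENSRNOG00000045654 came next. It stood at 4.39, 6.25 and 3.4 FPKM in the controls (4.68 ± 1.45, SD, n = 3) and at 950.08, 1322.82 and 348.31 FPKM in the mimic libraries (874 ± 492). Again the groups were far apart and mimic replicate 3 was the lowest mimic library. Its group means differed 187-fold, with a log2 fold change of 7.36 (standard error 0.48, 95% interval 6.22 to 8.50, adjusted p = 4.07e-05 with limma), or 7.62 relative to the median feature. Without mimic replicate 3 the log2 fold change was 7.92. In the OGD/R libraries it stood at 213.35, 116.3 and 1421.35 FPKM. For both features OGD/R replicate 3 was the highest OGD/R library. Where features are near-identical copies, the authors' estimation can divide reads between them, and without names it could not be seen whether these features are of that kind.

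The first place among the falls was held by ENSRNOG00000049740, at 8.64, 3.15 and 1.86 FPKM in the controls (4.55 ± 3.60, SD, n = 3) and listed at 0 in all 3 mimic libraries (adjusted p = 0.00019 with limma). No fold is given, since its size would depend on the constant added before the logarithm. The OGD/R libraries were listed at 0, 0 and 13.49 FPKM, so 1 of them was above every control.

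ENSRNOG00000058920 followed, at 13.47, 6.1 and 6.92 FPKM in the controls (8.83 ± 4.04, SD, n = 3) and at 0, 1.21 and 0 FPKM in the mimic libraries (0.403 ± 0.699). The groups did not overlap, and mimic replicate 2 was the only mimic library above 0. Its group means differed 21.9-fold, with a log2 fold change of -5.15 (standard error 0.99, 95% interval -7.50 to -2.80, adjusted p = 0.00398 with limma), or -4.88 relative to the median feature. This size rested on single libraries and on the constant. It was -6.39 without mimic replicate 2 and -4.53 without mimic replicate 1 or 3. With a constant of 1 it was -2.84, and with a constant of 0.01 it was -7.39. The OGD/R libraries stood at 0, 3 and 0.05 FPKM.

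The 15 leading rises differed widely in level. Their control means ran from 0 to 122 FPKM and their mimic means from 2.90 to 3881 FPKM, with 9 features under 10 FPKM over the 6 libraries, 2 from 10 to 100 FPKM and 4 over 100 FPKM. All controls were listed at 0 for 2 of the 15. For the other 13, the log2 fold change was 4.73 to 7.60 and the group means differed 13.3-fold to 212-fold. Among the 15 was 1 assembled locus. Mimic replicate 3 was the lowest of the mimic libraries in 13 of the 15 leading rises, and in 1111 of all 2540 expressed features called higher. Their mean in the OGD/R libraries, outside the test, was 1.98 to 3328 FPKM.

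The most abundant of these rises was the tenth in rank. It stood at 122.56, 124.26 and 120.36 FPKM in the controls and at 3937.56, 4142.16 and 3564.68 FPKM in the mimic libraries. Here the libraries of each group were close together, with a log2 fold change of 4.98 and a standard error of 0.07. The eleventh stood at 27.87, 32.97 and 28.03 FPKM in the controls and at 923.47, 1009.83 and 709.3 FPKM in the mimic libraries, a log2 fold change of 4.88 (standard error 0.14).

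The lowest adjusted p-value among the 15 rises was 6.06e-07 and the highest 0.0205, both from limma. The highest belonged to the fifteenth feature, at 2.2, 0 and 0 FPKM in the controls and at 12.84, 14.14 and 2.22 FPKM in the mimic libraries. Its groups were separated by the difference between 2.2 and 2.22 FPKM alone.

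On the log2(FPKM + 0.1) scale the 15 leading falls were smaller than the rises. With a constant of 0.01 the first 2 falls reached -8.54 and -7.39, against 7.72 and 7.38 for the first 2 rises. The order of sizes thus depended on the constant. The falls lay at lower means over the 6 libraries, but higher in the controls, with a median control mean of 4.60 against 0.137 FPKM. Their control means ran from 2.16 to 178 FPKM and their mimic means from 0 to 17.3 FPKM, with 12 features under 10 FPKM over the 6 libraries, 3 from 10 to 100 FPKM and 0 over 100 FPKM. All mimic libraries were listed at 0 for 3 of the 15, and at least 1 mimic library for 8. For the 12 above 0 in some mimic library, the log2 fold change was -5.15 to -3.13. Assembled loci made up 3 of the 15. Mimic replicate 3 was the highest of the mimic libraries, nearest to the controls, in 7 of the 15 leading falls and in 3344 of all 5615 expressed features called lower. The mean of the 15 in the OGD/R libraries, outside the test, was 0 to 25.1 FPKM.

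Some of the falls came from features well expressed in the controls. The seventh stood at 26.41, 26.89 and 27.24 FPKM in the controls and at 1.29, 2.57 and 3.01 FPKM in the mimic libraries, a log2 fold change of -3.58 (standard error 0.28). The twelfth, the most abundant of the 15 in the controls, stood at 165.68, 194.89 and 172.6 FPKM and fell to 14.23, 16.83 and 20.89 FPKM, a log2 fold change of -3.37 (standard error 0.14). By the mean of the 6 libraries the twelfth lay under 100 FPKM, at 97.5 FPKM. Among features with such a mean over 100 FPKM, the largest fall was in a feature outside the 15. It went from 296.54, 261.56 and 267.87 FPKM in the controls to 27.05, 28.37 and 39.92 FPKM with mimics and OGD/R (log2 fold change -3.13, standard error 0.15).

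**Figure D4:**
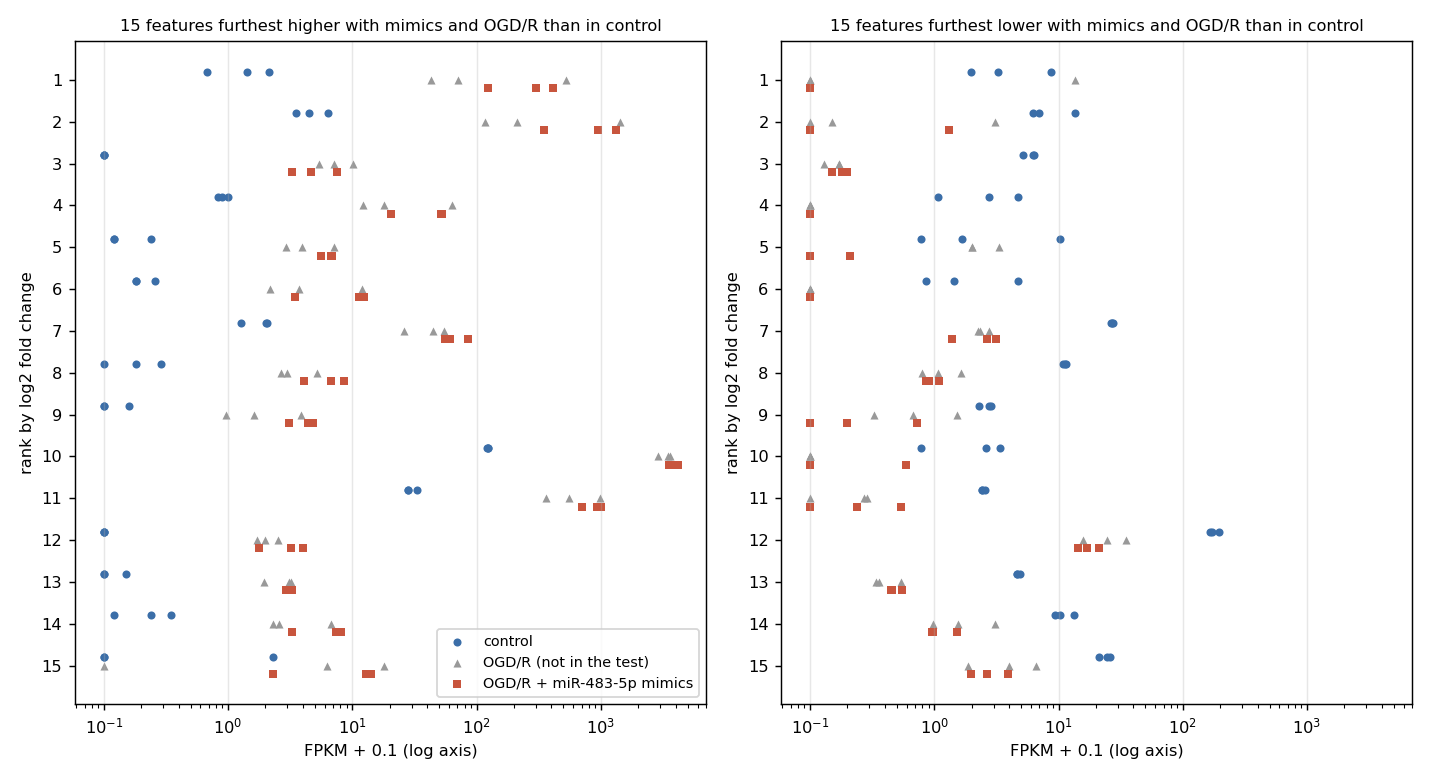
FPKM + 0.1 (log axis) in each library for the 15 leading rises (left) and falls (right), ranked by log2 fold change; circles are controls, triangles OGD/R libraries outside the test, squares mimic libraries. Controls and mimic libraries do not overlap in any row, by the rule that chose them; the rises span control means from 0 to 122 FPKM and the falls mimic means from 0 to 17.3 FPKM.

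Some features were seen in 1 group only. With 0 in all controls and a value above 0 in all mimic libraries there were 352 features. Their median mimic mean was 0.12 FPKM, the highest was 5.05 FPKM, and 3 were expressed features. The highest was also the third of the leading rises, at 0, 0 and 0 FPKM in the controls and 3.16, 7.4 and 4.59 FPKM in the mimic libraries. The reverse pattern, 0 in all mimic libraries and above 0 in all controls, held for 51 features. Their median control mean was 0.0867 FPKM, and 3 were expressed features. More features were above 0 in each mimic library than in each control, and the part of depth in the unequal numbers of 352 and 51 was not tested.

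In terms of FPKM, the largest single differences were in highly abundant features. The 5 called features with the largest gain in FPKM together made up 1.29% to 1.44% of the summed FPKM in the controls and 3.59% to 4.05% in the mimic libraries. The largest gain went from 2860.15, 2936.93 and 2861.7 FPKM to 7435.07, 7477.61 and 7363.1 FPKM (log2 fold change 1.36, standard error 0.08), which made it the highest feature of each mimic library. The next went from 716.2, 813.51 and 740.72 FPKM to 5226.76, 5675.43 and 3571.47 FPKM (log2 fold change 2.65, standard error 0.17), with mimic replicate 3 again the lowest of its group.

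The 5 called features with the largest loss together fell from 2.72% to 2.88% of the summed FPKM in the controls to 1.62% to 1.86% in the mimic libraries. The largest loss was in the feature that was highest in every control, from 7741.63, 7879.72 and 7576.61 FPKM to 4696.59, 5538.06 and 4697.83 FPKM (log2 fold change -0.64, standard error 0.10). A steeper fall among the 5 went from 1673.71, 1569.4 and 1554.98 FPKM to 424.72, 432.35 and 546.9 FPKM (log2 fold change -1.78, standard error 0.11).

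All 3799 features called higher held 19.5% to 19.9% of the summed FPKM in the controls and 33.0% to 34.7% in the mimic libraries, and the 6192 called lower held 42.7% in each control and 27.7% to 29.7% in the mimic libraries. These sums describe the called features and are no further test, since the calls chose them.

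The assembled loci were called about as often as the Ensembl features, at 760 of 1386 (54.8%) against 9231 of 17554 (52.6%). Their directions were not balanced in the same way: 407 of the loci were higher (29.4%) and 353 lower (25.5%), while 3392 Ensembl features were higher (19.3%) and 5839 lower (33.3%). This difference in balance was not tested, and the split of higher and lower itself moved with the scaling.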

How the data were processed

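The deposited values are FPKM, which the authors derived with RSEM from reads cleaned of adapters, poly-N and low quality; each library has 1 file, with values to 2 decimals. The submitters' processing notes also name Bowtie2 (2.3.3.1) and Cufflinks (2.2.1). The genome build and annotation are not given in the sources used here. The labels name 2 library kits without assigning them to libraries, and 1 culture detail of the labels is not reported here.

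FPKM are not counts, so log2(FPKM + 0.1) was fitted with limma (version 3.58.1, R version 4.3.3; lmFit, then eBayes with a trend), using only the 3 control and 3 OGD/R+miR-483-5p libraries, with 4 residual degrees of freedom. Tests were two-sided, with Benjamini-Hochberg adjustment over 18940 features; the other 4486 were at 0 in all 6 libraries. On simulated data with 200 changed features, the fit recovered 149 at a log2 change of 1 (18866 features tested, 5 false calls) and 190 at a log2 change of 2 (18867 tested, 16 false calls). The changed features all averaged 1 FPKM or more, and the simulated noise was independent between libraries. Far fewer features changed than were called in the data, and no scaling shift was simulated. These counts therefore do not describe errors from scaling or the recovery of features under 1 FPKM.

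Low values showed no clear steps of single reads, so relative depth was not estimated. Named features were the largest log2 fold changes each way among called, expressed features (average of the 6 libraries 1 FPKM or more) whose groups did not overlap. The members of the contrast, the rule and the gene lists were chosen with earlier results of these data known. The 23 gene lists and 6 marker lists could not be applied, because 0 identifiers matched the RefSeq table. Alternatives were pseudocounts of 1 and 0.01, filters at a mean of 0.1, 1 and 10 FPKM, quantile normalization, upper-quartile scaling, a block for replicate number, and fits without each library in turn.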

Additional observations from a re-analysis of the deposited data

How the results depend on the processing

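The number of features at an adjusted p under 0.05 (9991) stayed within 1.5 times under each alternative except the filter at a mean of 10 FPKM, which left 7391 features to test and called 5486. Leaving out each library in turn gave 8574 to 10140. The number meeting the criteria of the study (4174) fell to 2112 with a pseudocount of 1, and to 2761 and 1288 with filters at a mean of 1 and 10 FPKM; without each library it was 3980 to 4439. The share of called features that were higher (38.0%) was 36.2%, 31.4% and 33.2% with filters at 0.1, 1 and 10 FPKM, 45.0% with quantile normalization, 58.5% with upper-quartile scaling and 36.9% to 38.6% without each library. For expressed features the median log2 fold change (-0.27) was -0.21 with the filter at 10 FPKM, which changes the features it covers, -0.081 with quantile normalization and 0.046, the opposite sign, with upper-quartile scaling; without each library it was -0.29 to -0.24. For the scalings the cause was not tested. Of the 9991 called features, 8327 were also called with quantile normalization and 7812 with upper-quartile scaling, 7799 of these in the same direction. The log2 fold changes of the 4 printed features kept their direction and an adjusted p under 0.05 in limma in all 54 values that the alternatives gave for them, with a highest adjusted p of 0.0224. Of all 30 leading features, 29 passed that threshold with a pseudocount of 1, 29 without control replicate 2 or 3 or mimic replicate 1 or 3, and 28 without mimic replicate 2, and the filter at 10 FPKM left 9, all of which passed. The 30 passed under each of the other alternatives, and every leading feature tested kept its direction.

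Replicate numbers paired the libraries in no consistent way, and whether any of them pair was not tested. The deviations of same-numbered control and mimic libraries from their group means correlated at 0.03, 0.23 and 0.02 for replicates 1, 2 and 3. Control replicate 1 correlated best with mimic replicate 3 (0.09), control replicate 2 with mimic replicate 2 (0.23) and control replicate 3 with mimic replicate 1 (0.07). With a replicate block, 10293 features were called and 4194 met the criteria of the study. The planned tests of the gene lists and their alternatives were not run, because the identifiers carry no names here. Depth is unknown, which limits statements on features under 1 FPKM.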
